A study of Mus musculus with 5 samples.

Results

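Transcript levels were followed for Psmb8, Psmb9, Psmb10, Psme1, Tap1, Tap2, Tapbp, B2m, H2-K1 and H2-D1, genes that make, move and present peptides on major histocompatibility complex (MHC) class I. These 10 genes, of 32285 in the tables, were found by their symbols, and each was present in all 5 libraries. They had been proposed from levels seen in these same libraries, in cells with and without the mesoderm factor T, so the levels and the T split below are a description and carry no test. Mouse epiblast stem cells (EpiSCs), a line from 1 embryo of 129 background that resembles the epiblast after implantation, were differentiated for 3 days and profiled with droplet single-cell RNA sequencing. All 5 cultures were grown in N2B27 medium with 1 µM of the Wnt agonist CHIR99201 (Chi) and 8 ng/ml BMP4. Of the 5 cultures, 4 received 0, 0.75, 3 or 12 ng/ml FGF2, and the other one, called FGFRi, received 30 nM AZD4547, an inhibitor of the FGF receptors. An FGF2 dose for the FGFRi culture is not given in the sources used here. The comparison asks how the supply of FGF signal changes the transcripts of cells that are leaving the epiblast state.

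There was 1 library for each condition. After barcodes with at least 2500 genes and at most 10% mitochondrial unique molecular identifiers (UMIs) were kept, 10653 of 15375 barcodes remained, 1696 to 2725 per library, with median depths of 24408 to 29662 UMIs. Levels are in CPM, the UMIs of a gene per 1000000 UMIs, with the UMIs added up over the retained cells. Brackets hold exact 95% intervals, Poisson for levels, conditional for ratios and binomial for shares, and they cover counting error only, since the spread between cultures is unknown with 1 library each. A ratio was counted as a difference in size at 2-fold or more with at least 10 CPM on either side. T itself was at 0.753, 26.7, 92.7, 205 and 208 CPM in FGFRi and with 0, 0.75, 3 and 12 ng/ml FGF2, and 7 retained barcodes occurred in more than 1 library.

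The proteasome cuts proteins into peptides with 3 catalytic subunits, Psmb5, Psmb6 and Psmb7 in most cells. Under interferon and in immune cells these are replaced by Psmb8, Psmb9 and Psmb10, which gives the immunoproteasome, and the activator formed by Psme1 and Psme2 caps the barrel. Peptides pass into the endoplasmic reticulum through the transporter Tap1 and Tap2, tapasin (Tapbp) loads them, and the heavy chains H2-K1 and H2-D1 carry them to the surface together with B2m. Pluripotent and early embryonic cells are known for low class I expression.

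Of the 10 genes, 7 lie on mouse chromosome 17 (GRCm38, GENCODE vM21 gene bounds). Tapbp lies at chr17:33915899-33929292 on the plus strand and H2-K1 at chr17:33996017-34000347 on the minus strand. A run of 4 neighbours follows, with Psmb9 at chr17:34181987-34187764 (minus), Tap1 at chr17:34187553-34197225 (plus), Psmb8 at chr17:34197721-34201454 (plus) and Tap2 at chr17:34203527-34216321 (plus). The Psmb9 and Tap1 annotations overlap head to head by 212 bases, 495 bases separate Tap1 from Psmb8, and 2072 bases separate Psmb8 from Tap2. H2-D1 lies apart from them at chr17:35262730-35267499 (plus). Psmb10 is at chr8:105935735-105938444 (minus), Psme1 at chr14:55578123-55581529 (plus) and B2m at chr2:122147686-122153083 (plus). H2-K1 and H2-D1 are related in sequence to each other and to other H2 genes. Reads that fit several of them may have been dropped, so their levels are uncertain.

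Promoter windows of 300 bases (250 before to 50 after the start, RefSeq, GRCm38.p6) were at hand for 9 of the 10 genes, all but Tap2. The patterns searched, 4 in all and on both strands, were an IRF core AANNGAAA, a STAT site TTCNNNGAA, an NF-kB-like site GGGNNTTCC and a T-box site AGGTGTGA. The 5 sequences printed here begin with that of Psmb8, the gene with the widest range in fold between libraries. The stretch that Psmb9 and Tap1 share follows, and then the class I chains B2m, H2-K1 and H2-D1, which behaved otherwise. Each reads 5′ to 3′ on the strand given, and capitals mark a pattern.
Psmb8 (chr17:34197945-34198244, plus): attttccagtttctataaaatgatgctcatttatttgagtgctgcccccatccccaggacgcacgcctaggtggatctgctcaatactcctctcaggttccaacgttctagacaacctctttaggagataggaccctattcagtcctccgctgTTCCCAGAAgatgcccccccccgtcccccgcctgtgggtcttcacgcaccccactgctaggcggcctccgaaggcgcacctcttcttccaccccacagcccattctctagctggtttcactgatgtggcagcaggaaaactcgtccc
Psmb9 and Tap1 (chr17:34187306-34187580, plus): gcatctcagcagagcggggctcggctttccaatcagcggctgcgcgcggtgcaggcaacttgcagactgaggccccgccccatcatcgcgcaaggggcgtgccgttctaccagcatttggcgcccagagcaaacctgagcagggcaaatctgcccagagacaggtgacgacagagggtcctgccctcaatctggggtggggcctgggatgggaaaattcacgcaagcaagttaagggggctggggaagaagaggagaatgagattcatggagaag
B2m (chr2:122147437-122147736, plus): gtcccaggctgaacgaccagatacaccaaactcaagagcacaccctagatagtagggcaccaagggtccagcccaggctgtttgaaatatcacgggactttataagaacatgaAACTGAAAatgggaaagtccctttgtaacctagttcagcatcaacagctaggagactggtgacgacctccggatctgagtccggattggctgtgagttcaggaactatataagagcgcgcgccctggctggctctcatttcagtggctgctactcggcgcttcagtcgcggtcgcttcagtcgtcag
H2-K1 (chr17:34000298-34000597, minus): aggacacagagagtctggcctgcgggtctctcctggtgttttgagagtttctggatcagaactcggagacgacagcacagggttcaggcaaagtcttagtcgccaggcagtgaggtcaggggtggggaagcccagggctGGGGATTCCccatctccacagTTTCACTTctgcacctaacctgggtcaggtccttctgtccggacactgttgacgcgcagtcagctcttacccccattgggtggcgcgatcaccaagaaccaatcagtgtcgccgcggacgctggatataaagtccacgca
H2-D1 (chr17:35262844-35263143, plus): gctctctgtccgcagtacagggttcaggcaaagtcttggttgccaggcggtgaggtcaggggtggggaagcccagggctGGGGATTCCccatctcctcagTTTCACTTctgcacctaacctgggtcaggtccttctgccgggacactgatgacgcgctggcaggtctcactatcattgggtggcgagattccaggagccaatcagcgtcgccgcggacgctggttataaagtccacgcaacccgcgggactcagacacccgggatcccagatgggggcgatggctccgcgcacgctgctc

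The Psmb8 window held a STAT site 97 bases before the start, where the pattern was found on both strands, and 8.30% of 32851 promoters hold this pattern. The IRF core, present in 23.9% of all promoters, was found in B2m, H2-K1, H2-D1 and Psme1. H2-K1 and H2-D1 both had the NF-kB-like site, GGGGATTCC, followed by an IRF core on the opposite strand, and 5.82% of all promoters hold the NF-kB-like pattern. The Psmb9 and Tap1 windows share 275 bases, with 225 bases between the starts, and held none of the 4 patterns. The T-box site, in 1.28% of all promoters, was in none of the 9 windows. These matches of letters are descriptions, and nothing was measured at these positions.

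The catalytic subunits of the immunoproteasome were higher with more FGF2, and Psmb8 had the widest range in fold of the 10 genes. Psmb8 was at 1.21 CPM (0.921 to 1.57) in FGFRi, 3.19 (2.74 to 3.69) without FGF2, 11.6 (10.9 to 12.4) with 0.75, 19.6 (18.5 to 20.7) with 3 and 24.5 (23.4 to 25.7) with 12 ng/ml. Each library was above the one before it with no overlap of the intervals. These intervals take UMIs as independent, yet 10 cells held 45 of the 58 Psmb8 UMIs in FGFRi and 10 cells 116 of the 181 without FGF2. They are therefore too narrow for these libraries. With 0.75, 3 and 12 ng/ml the 945, 1264 and 1737 Psmb8 UMIs lay in 258, 365 and 468 cells, so the intervals are too narrow there as well. The level at 12 ng/ml was 20.2-fold (15.6 to 26.8) that of FGFRi and 7.70-fold (6.61 to 9.03) that without FGF2. In a library sum of this kind, fewer cells with the transcript and less transcript per cell cannot be told apart. With every cell thinned to 10000 UMIs, 0.662% of cells in FGFRi, 1.55% without FGF2, 4.92% with 0.75, 9.60% with 3 and 10.8% with 12 ng/ml had a Psmb8 UMI (without thinning 1.35%, 2.54%, 9.47%, 17.2% and 19.5%). Most cells therefore had no Psmb8 UMI in any library.

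A single cell weighed on the lowest level. In FGFRi, 28 of the 58 Psmb8 UMIs came from 1 cell, which had 55451 UMIs in all, 12 Psmb10 UMIs and 1 T UMI. Without the cell richest in Psmb8 of each library, an alternative added after the data were seen, the FGFRi level was 0.628 CPM (0.424 to 0.897), and 12 ng/ml FGF2 over FGFRi was 38.4-fold in place of 20.2-fold, with a log2 ratio of 5.26 (4.75 to 5.84). The step from FGFRi to 0 ng/ml was then 4.21-fold in place of 2.63-fold (1.94 to 3.59).

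Psmb10 had the same order at a higher level. It was at 19.5 CPM in FGFRi, 35.5 without FGF2, 58.9 with 0.75, 86.2 with 3 and 92.8 (90.5 to 95.03) with 12 ng/ml. The 12 ng/ml level was 4.76-fold (4.44 to 5.10) that of FGFRi and 2.61-fold (2.49 to 2.75) that without FGF2. Its steps became smaller with dose, at 1.66-fold from 0 to 0.75 ng/ml, 1.46-fold from 0.75 to 3 ng/ml and 1.08-fold (1.04 to 1.12) from 3 to 12 ng/ml.

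Psmb9 was the scarcest of the catalytic subunits. It was at 0.544 CPM (0.355 to 0.797) in FGFRi, 0.704 (0.503 to 0.959) without FGF2, 2.16 with 0.75, 3.16 with 3 and 4.45 (3.97 to 4.97) with 12 ng/ml. The FGFRi and 0 ng/ml intervals overlapped, and their log2 ratio was 0.37 (-0.37 to 1.14), so a difference was not detectable at this depth. The 12 ng/ml level was 8.19-fold (5.48 to 12.7) that of FGFRi, on counts of 315 and 26 UMIs.

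Their constitutive counterparts kept near the same level throughout. Psmb5 ranged from 332 to 366 CPM, Psmb6 from 359.98 to 431 CPM and Psmb7 from 202 to 214 CPM across the 5 libraries. Psmb8 therefore made up 0.343% (0.261 to 0.443) of the Psmb8 and Psmb5 UMIs in FGFRi and 6.28% (5.997 to 6.57) at 12 ng/ml. Psmb10 made up 8.81% (8.27 to 9.36) of its pair with Psmb7 in FGFRi, 14.2% without FGF2, 21.9% with 0.75, 29.0% with 3 and 30.4% (29.7 to 31.0) with 12 ng/ml. Psmb9 stayed at or below 1.02% of its pair with Psmb6. UMIs are counted at the 3′ end with no length term, and the yield of each gene's end is unknown, so these shares compare libraries rather than amounts of protein. Of the 11 other subunits of the 20S core and the 18 listed members of the 19S regulatory particle, 0 differed by 2-fold between any of the libraries compared. Their median log2 ratios were 0.06 and -0.02 from FGFRi to 12 ng/ml. Over all genes compared, 7.72% were 2-fold higher and 12.7% lower from FGFRi to 12 ng/ml. From 3 to 12 ng/ml 5 of 7929 genes were higher and 2 lower.

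The activator subunit Psme1 was abundant and varied little. It was at 168 CPM in FGFRi, 154 without FGF2, 185 with 0.75, 199.6 with 3 and 217 with 12 ng/ml. The lowest level was without FGF2, and 12 ng/ml was 1.41-fold (1.37 to 1.45) above it. Its partner Psme2 was at 144, 124, 161, 206 and 222 CPM in the same order. After thinning, a Psme1 UMI was found in 74.4% to 78.1% of cells (without thinning in 94.1% to 95.9%), the most of the 10 genes.

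**Figure D1:**
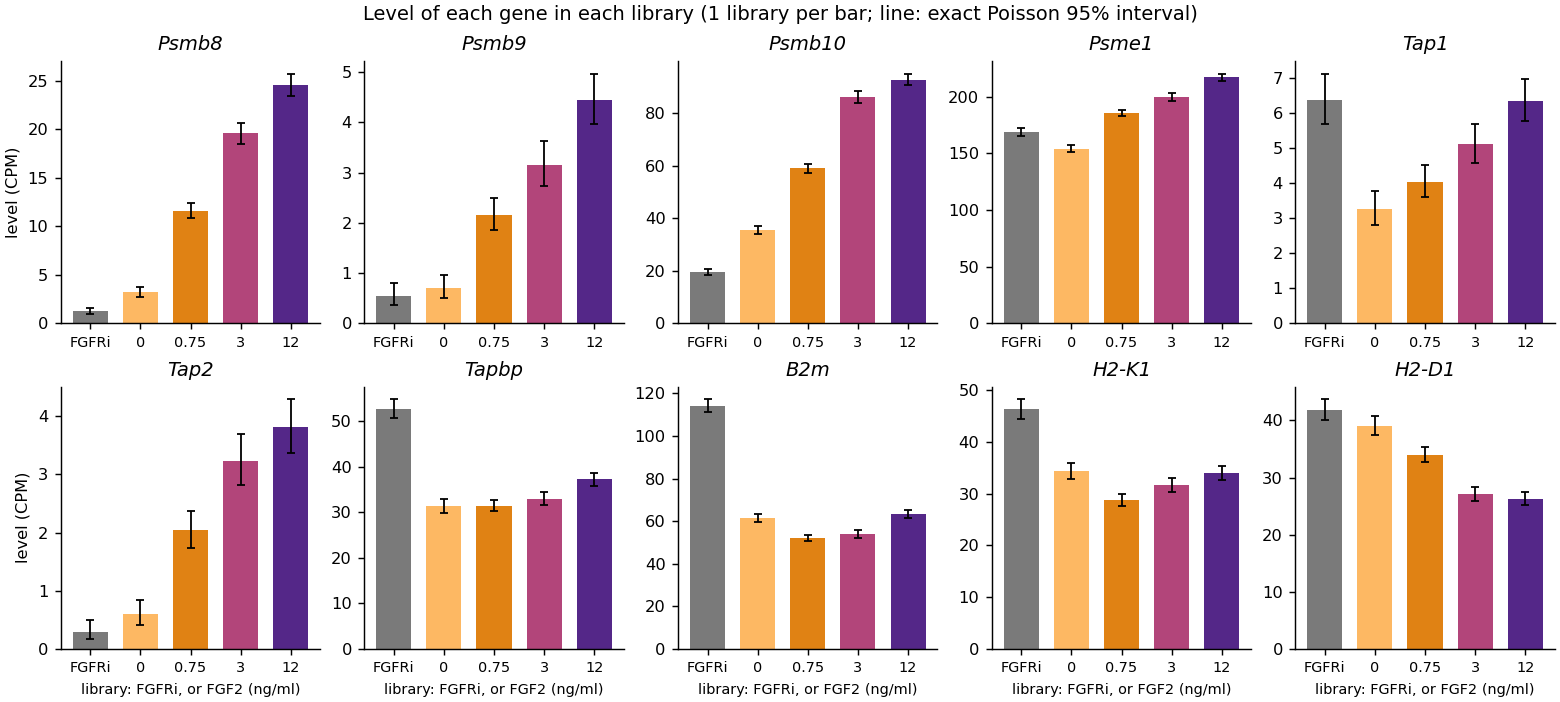
Levels of the 10 genes in CPM (vertical axes, from 0) in the 5 libraries (horizontal axes), 1 bar per library, with the exact Poisson 95% interval as a line. Psmb8, Psmb9, Psmb10 and Tap2 stand lowest in FGFRi and highest at 12 ng/ml FGF2, from 1.21 to 24.5 CPM for Psmb8, whereas Tapbp, B2m, H2-K1 and H2-D1 stand highest in FGFRi, with 114 CPM for B2m.

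The subunits of the peptide transporter did not share a pattern. Tap2 was at 0.293 CPM (0.160 to 0.491) in FGFRi, 0.598 without FGF2, 2.04 with 0.75, 3.23 with 3 and 3.81 (3.37 to 4.30) with 12 ng/ml, in the order seen for Psmb8. The 12 ng/ml level was 13.0-fold (7.63 to 24.2) that of FGFRi, on 270 and 14 UMIs. Tap1 was at 6.36 CPM (5.66 to 7.11) in FGFRi, 3.26 (2.80 to 3.76) without FGF2, 4.03 with 0.75, 5.11 with 3 and 6.34 (5.77 to 6.96) with 12 ng/ml. Its level without FGF2 was the lowest and was 1.95-fold (1.62 to 2.36) below FGFRi, while FGFRi and 12 ng/ml differed by a log2 ratio of -0.00 (-0.22 to 0.21), whose sign turned with the settings tried. Tap1 and Psmb9, which start from one stretch of sequence, thus differed in FGFRi, where Psmb9 was at its lowest and Tap1 was level with 12 ng/ml.

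Tapbp, the loading factor, was at 52.7 CPM (50.7 to 54.8) in FGFRi and at 31.3, 31.4, 32.9 and 37.2 CPM with 0, 0.75, 3 and 12 ng/ml FGF2. The FGFRi library stood above all 4 others, and among those 12 ng/ml was the highest. FGFRi was 1.68-fold (1.58 to 1.79) above 0 ng/ml.

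The class I chains were highest under FGFRi, though H2-D1 by only 1.07-fold (1.01 to 1.14) over 0 ng/ml. B2m was at 114 CPM (111 to 117) in FGFRi, 61.4 (59.3 to 63.4) without FGF2, 52.1 with 0.75, 53.8 with 3 and 63.1 (61.3 to 65.0) with 12 ng/ml. It was 1.86-fold (1.78 to 1.94) higher in FGFRi than without FGF2, while 0 and 12 ng/ml differed by 1.03-fold (0.984 to 1.08). With thinning, 57.0% of FGFRi cells and 34.5% to 39.6% of cells in the other libraries had a B2m UMI.

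The heavy chains differed from each other along the dose series. H2-K1 was at 46.3 CPM in FGFRi, 34.3 without FGF2, 28.7 with 0.75, 31.7 with 3 and 34.0 with 12 ng/ml, and its 0 and 12 ng/ml levels differed by 0.993-fold (0.935 to 1.05). H2-D1 was at 41.9 CPM (40.1 to 43.8) in FGFRi, 39.1 (37.5 to 40.7) without FGF2, 34.0 with 0.75, 27.1 (25.9 to 28.4) with 3 and 26.3 (25.1 to 27.5) with 12 ng/ml. H2-D1 was the one member that was lower at each higher dose, and it was 1.48-fold (1.40 to 1.58) lower at 12 ng/ml than without FGF2. The intervals of FGFRi and 0 ng/ml overlapped, as did those of 3 and 12 ng/ml.

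Over all 10 genes, the median log2 ratio from FGFRi to 12 ng/ml was 0.18, with 5 genes higher and 5 lower. By the rule of size, 2 members (Psmb8 and Psmb10) of the 7 with at least 10 CPM were 2-fold higher and 0 were lower, where 7.72% of the 8650 genes compared were higher and 12.7% lower. From FGFRi to 0 ng/ml the median was -0.12, and 0 of the 6 members compared passed in either direction, against 2.62% of 8445 genes higher and 5.38% lower. From 0 to 12 ng/ml the median was 0.73, with 8 genes higher and 2 lower, and Psmb8 and Psmb10 were again the 2 of 7 past the fold, against 1.87% of 8237 genes higher and 4.04% lower. Psmb8 reached 10 CPM only where it was high. Psmb9, Tap1 and Tap2 stayed under 10 CPM in every library, so these counts leave out genes with large ratios. From FGFRi to 12 ng/ml, Tap2 (13.0-fold, 14 UMIs in FGFRi) and Psmb9 (8.19-fold, 26 UMIs in FGFRi) were such genes, and Tap1 was not. The median over all genes compared was 0.00, 0.00 and 0.01 in these comparisons, which share libraries with one another. The members were chosen with these ratios known, so their share is not evidence beyond the values.

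**Figure D2:**
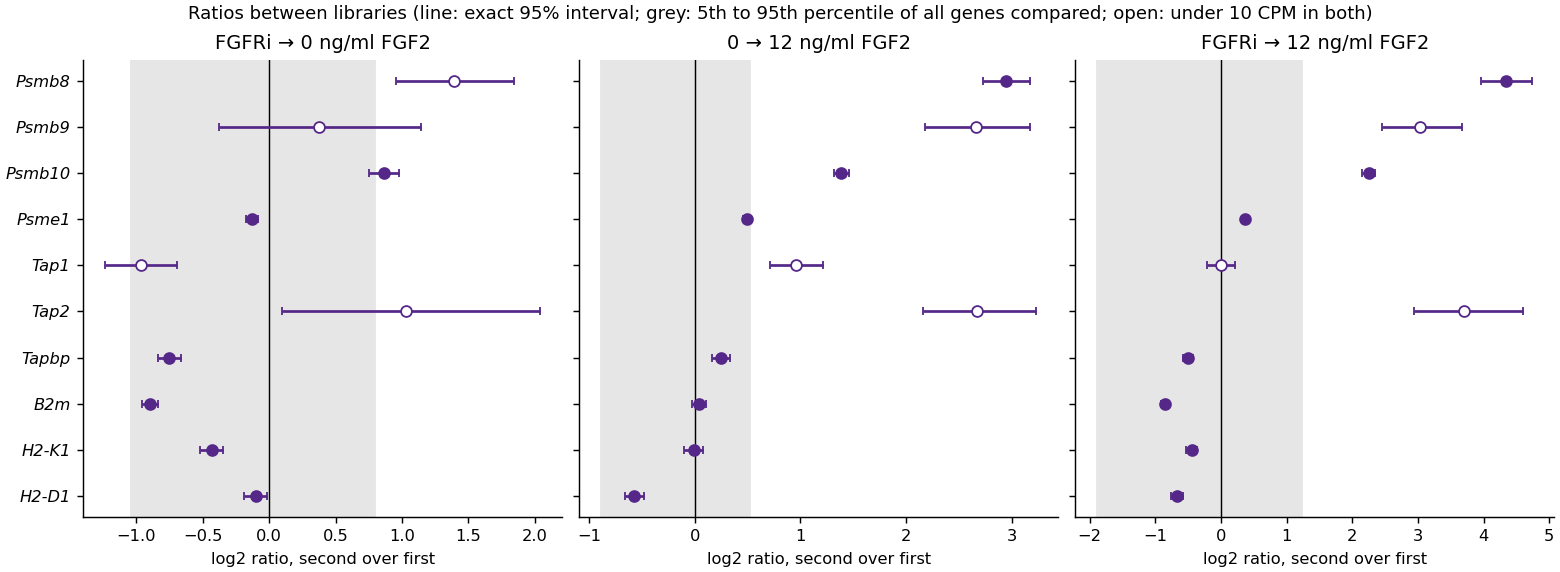
log2 ratio of each gene (horizontal axes) between the libraries named above each panel, with exact 95% intervals as lines, the range from the 5th to the 95th percentile of all genes compared in grey, and open points for genes under 10 CPM on both sides. From FGFRi to 12 ng/ml, Psmb8 (4.34), Tap2 (3.70), Psmb9 (3.03) and Psmb10 (2.25) lie above the grey range, and the other 6 lie within it.

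Cells with at least 8 T UMIs, called T-high, were then set against the other cells of the same library. T, also called Brachyury, is a transcription factor of the primitive streak and nascent mesoderm. There were 0 T-high cells among 1701 in FGFRi, which allows a share of up to 0.217%, 39 of 1696 without FGF2, 303 of 2725 with 0.75, 610 of 2125 with 3 and 641 of 2406 with 12 ng/ml. Their median depth was 31284 to 32597 UMIs at the last 3 doses, against 25927 to 27051 in the rest, so T-high cells were also the deeper ones. At 0 ng/ml the 39 cells were too few for the comparison. Mixl1, another gene of the primitive streak, had log2 ratios of 3.00, 1.63 and 1.01 in T-high cells over the rest at the last 3 doses. Tbx6, a gene of later paraxial mesoderm, had -0.05, -0.41 and -0.98. The epiblast factor Pou5f1 had 1.97, 1.81 and 1.60. Of the 6 epiblast markers listed 2 were compared at each dose, and the other one had 0.29, 0.06 and 0.72.

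Psmb8 was concentrated in the T-high cells at every dose. At 0.75 ng/ml it was at 58.6 CPM (54.1 to 63.4) in T-high cells and 4.45 (3.97 to 4.97) in the rest, a log2 ratio of 3.72. At 3 ng/ml it was at 45.6 against 6.86 CPM (2.73) and at 12 ng/ml at 57.1 against 10.3 CPM (2.46). The T-high levels stayed between 45.6 and 58.6 CPM while the rest was higher at each higher dose. T-high cells held 13.2%, 32.8% and 30.4% of all UMIs at 0.75, 3 and 12 ng/ml and 66.7%, 76.4% and 70.6% of the Psmb8 UMIs. Ranked by this ratio over all genes that reached 10 CPM, Psmb8 was number 6 of 8101, 6 of 8027 and 15 of 8036. The split was used to propose Psmb8, and at 0.75 and 3 ng/ml it reached 10 CPM through the T-high cells alone, so its ranks are a description. After thinning, 27.1% (22.1 to 32.4), 23.6% and 24.4% of T-high cells had a Psmb8 UMI at 0.75, 3 and 12 ng/ml. In the rest 2.12%, 3.92% and 5.92% of cells had one, and of cells without a T UMI 0.282%, 1.12% and 2.35%. Most T-high cells thus had none at that depth.

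Psmb10 and Psmb9 followed Psmb8 with smaller ratios. Psmb10 was at 161 against 43.4 CPM with 0.75 (log2 ratio 1.89), 147 against 56.7 with 3 (1.37) and 154 against 66.0 with 12 ng/ml (1.22). Psmb9 was at 8.19 against 1.24 CPM, 6.66 against 1.45 and 8.98 against 2.47 at the same doses. In T-high cells the share of Psmb8 in its pair with Psmb5 was 14.6%, 11.4% and 13.2%, against 1.33%, 2.04% and 2.78% in the rest. Psmb10 made up 42.1%, 39.2% and 41.4% of its pair with Psmb7 in T-high cells and 17.3%, 21.8% and 23.9% in the rest. Psmb5, Psmb6 and Psmb7 themselves differed between the classes by log2 ratios of 0.05 to 0.16.

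Psme1 was at 353 against 160.0 CPM with 0.75, 300.02 against 151 with 3 and 329 against 168 with 12 ng/ml, with log2 ratios of 1.14, 0.99 and 0.97. Its partner Psme2 was higher in T-high cells by 1.70, 1.41 and 1.28. It was the one gene past the fold of the 8 other activators and assembly factors listed, where 1.69%, 1.3% and 1.19% of all genes were. Psme1 thus lay near the 2-fold bound at each dose, just above it at 0.75 ng/ml and just below it at 3 and 12 ng/ml.

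For transport and loading, T-high cells were higher in all 3 genes. Tap2 was at 11.0 against 0.678 CPM with 0.75 (log2 ratio 4.02, number 3 of 8101 genes), 7.65 against 1.08 with 3 (2.82) and 9.03 against 1.54 with 12 ng/ml (2.55). The Tap2 rank is a description too, since the split was used to propose Tap2 and it reached 10 CPM through the T-high cells alone. Tap1 was at 8.09 against 3.42 CPM, 8.74 against 3.34 and 10.2 against 4.65, with log2 ratios of 1.24, 1.39 and 1.14. Tapbp was at 65.4 against 26.3 CPM, 58.0 against 20.7 and 66.0 against 24.6, with log2 ratios of 1.32, 1.49 and 1.42. Tapbp, highest in FGFRi among the libraries, was therefore also higher in T-high cells, of which FGFRi had 0.

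The class I chains differed by less than 2-fold between T-high cells and the rest. B2m was at 53.8 against 51.8 CPM with 0.75 (log2 ratio 0.05, -0.07 to 0.18), 57.8 against 51.9 with 3 (0.15) and 73.8 against 58.4 with 12 ng/ml (0.34). H2-K1 had log2 ratios of 0.10 (-0.07 to 0.27), 0.52 and 0.54, and H2-D1 of -0.35 (-0.52 to -0.17), 0.01 (-0.14 to 0.15) and 0.38 (0.25 to 0.52). The H2-K1 ratios at 3 and 12 ng/ml lay above the 95th percentile of all genes compared, 0.37 and 0.39 at these doses. The sign of the B2m ratio turned under other settings at every dose, that of H2-K1 at 0.75 and 12 ng/ml and that of H2-D1 at 3 and 12 ng/ml. With only cells without a T UMI as the rest, H2-D1 at 12 ng/ml had a log2 ratio of -0.55.

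Counting members, 5 of the 8 with at least 10 CPM were 2-fold higher in T-high cells at 0.75 ng/ml (Psmb8, Psmb10, Psme1, Tap2 and Tapbp), against 1.69% of 8101 genes. At 3 ng/ml 3 of 7 were (Psmb8, Psmb10 and Tapbp), against 1.3% of 8027 genes. At 12 ng/ml 4 of 8 were (Psmb8, Psmb10, Tap1 and Tapbp), against 1.19% of 8036 genes. No member was 2-fold lower at any of these doses, where 1.79%, 0.86% and 0.684% of genes were. The medians over all 10 were 1.28, 1.38 and 1.18. The split was used to propose these genes, so nothing is read from the shares. Psmb8 at 0.75 and 3 ng/ml, Tap2 at 0.75 ng/ml and Tap1 at 12 ng/ml reached 10 CPM through the T-high cells alone.

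**Figure D3:**
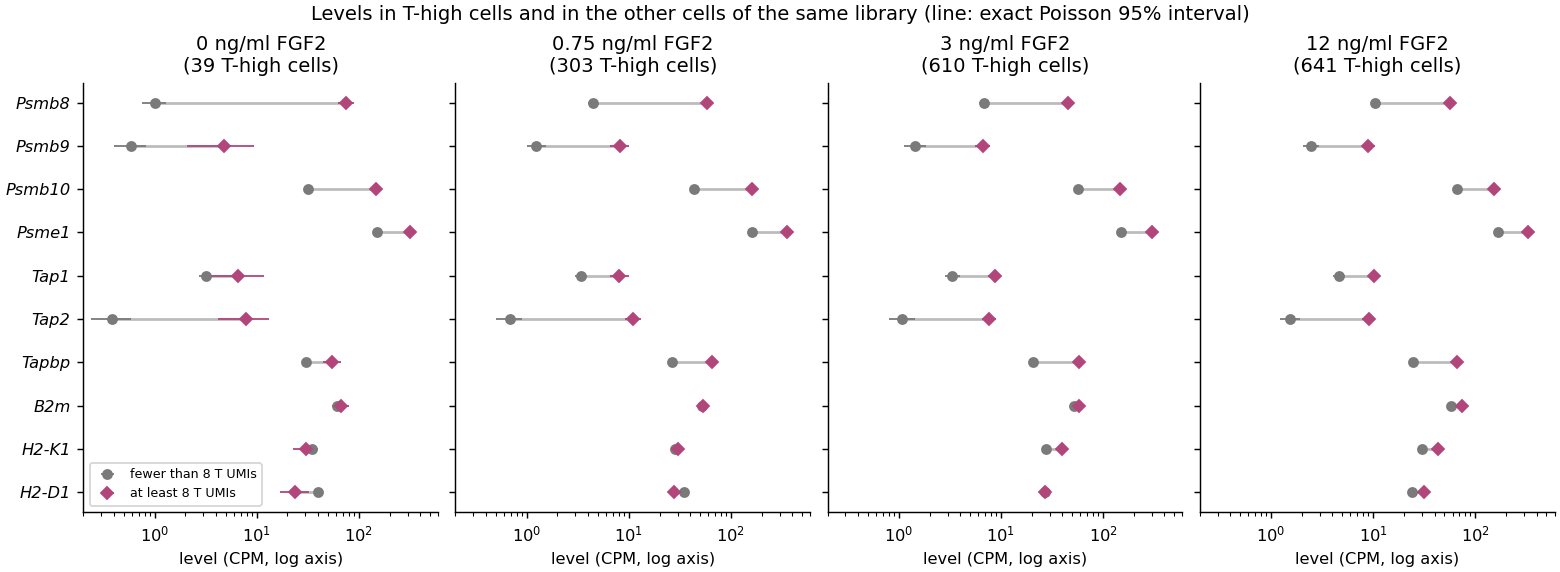
Level in CPM (horizontal axes, log scale) of each gene in T-high cells (diamonds) and in the other cells (circles) of the 4 libraries that hold T-high cells, with exact Poisson 95% intervals as lines. The diamonds of Psmb8, Psmb9, Psmb10, Psme1, Tap1, Tap2 and Tapbp lie to the right in the 3 libraries with 303 to 641 T-high cells. Those of B2m, H2-K1 and H2-D1 lie less than 2-fold from the circles there.

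Along 6 steps of T UMIs the genes fell into different shapes. At 12 ng/ml Psmb8 was at 2.49, 4.79, 8.85, 20.4, 42.8 and 78.8 CPM in cells with 0, 1, 2 to 3, 4 to 7, 8 to 15 and 16 or more T UMIs. Psmb10 was at 37.9, 49.98, 72.8, 90.1, 134 and 184 CPM in the same steps, each above the last. The bound of 8 T UMIs cut through this gradient, with Psmb8 at 20.4 CPM just below it and 42.8 just above it. At 0.75 ng/ml the Psmb8 steps ran from 0.581 to 81.2 CPM, and at 3 ng/ml from 0.641 to 55.0 CPM, again each above the last. Without FGF2 the rise was not steady. There Psmb8 was at 0.401, 1.55, 4.95, 2.06, 52.8 and 118 CPM, and Psmb10 was at 63.8 CPM in cells with 2 to 3 T UMIs and 50.9 CPM in the 92 cells with 4 to 7. For both genes the intervals of the 2 to 3 and 4 to 7 steps overlapped. The last 2 steps without FGF2 held 28 and 11 cells.

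H2-D1 was high at both ends. At 12 ng/ml it was at 46.1 CPM (42.3 to 50.1) in cells without a T UMI, 21.3, 15.4, 15.9 and 25.7 in the next 4 steps, and 40.1 (36.0 to 44.6) in those with 16 or more. B2m was at 80.5, 55.9, 49.5, 50.4, 65.5 and 86.3 CPM and H2-K1 at 45.0, 27.3, 21.5, 26.6, 35.3 and 56.0 CPM in these steps. At 0.75 ng/ml H2-D1 was at 45.5 CPM without a T UMI, 17.5 at 2 to 3 UMIs and 31.3 at 16 or more, and at 3 ng/ml at 43.0, 15.9 and 34.2 CPM. The low middle stood in all 3 libraries. Tapbp had a shallow low of 19.5 CPM at 1 T UMI at 12 ng/ml and reached 85.1 CPM at 16 or more.

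**Figure D4:**
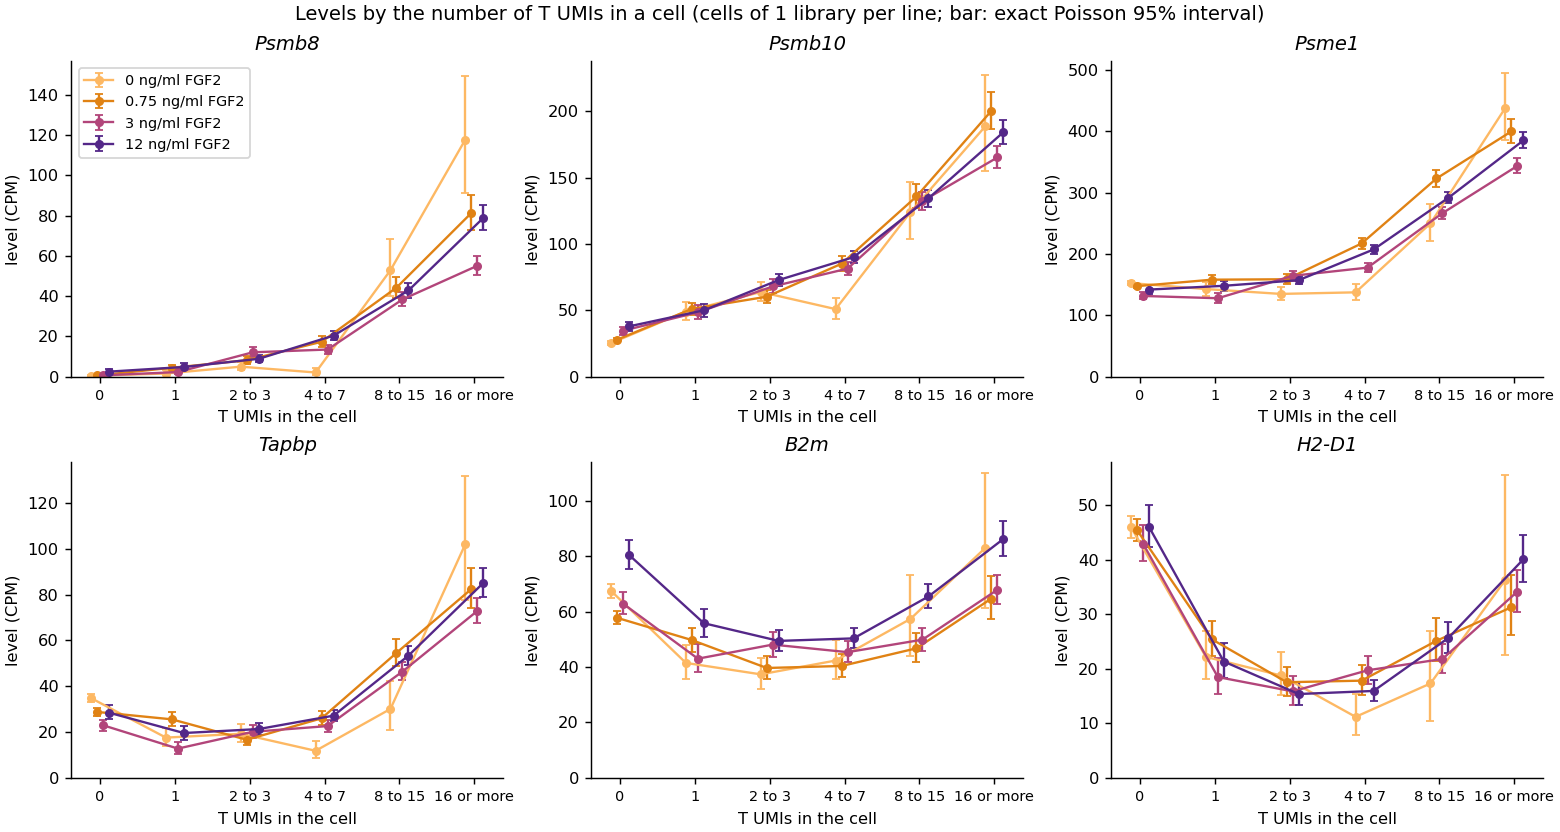
Levels in CPM (vertical axes, from 0) of 6 of the genes in cells grouped by their T UMIs (horizontal axes), 1 line per FGF2 dose, with exact Poisson 95% intervals as bars. At 12 ng/ml Psmb8 goes from 2.49 to 78.8 CPM and Psmb10 from 37.9 to 184 CPM, while H2-D1 goes from 46.1 CPM down to 15.4 and back to 40.1. The 0 ng/ml line rests on 28 and 11 cells in its last steps.

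Within one T class the libraries could be compared again. Among T-high cells, 12 ng/ml over 0.75 ng/ml gave log2 ratios of -0.04 (-0.18 to 0.10) for Psmb8 and -0.06 (-0.15 to 0.02) for Psmb10. In cells without a T UMI, Psmb8 was at a log2 ratio of 2.63 (1.73 to 3.58) from 0 to 12 ng/ml, on 17 and 30 UMIs. Psmb10 was at 0.59 (0.43 to 0.75), so a difference between 0 and 12 ng/ml was also seen there. For Psmb8 the levels with 0, 0.75 and 3 ng/ml were 0.401, 0.581 and 0.641 CPM, with overlapping intervals. Only the level with 12 ng/ml, 2.49 CPM (1.68 to 3.55), stood apart, by intervals that take the UMIs as independent and are too narrow for Psmb8. In cells with 1 to 7 T UMIs, Psmb8 was at 2.98, 9.86, 10.3 and 12.9 CPM with 0, 0.75, 3 and 12 ng/ml. From 0 to 12 ng/ml the log2 ratio in that class was 2.11 (1.64 to 2.63) for Psmb8 and 0.45 (0.33 to 0.57) for Psmb10. B2m in T-high cells was higher at 12 than at 0.75 ng/ml by 0.46 (0.32 to 0.60) and H2-K1 by 0.52 (0.33 to 0.70). Against FGFRi, cells without a T UMI at 12 ng/ml were lower in Tapbp by a log2 ratio of -0.90 (-1.07 to -0.74), in B2m by -0.52 (-0.62 to -0.42) and in Tap1 by -0.96 (-1.48 to -0.48). H2-K1 (-0.06, -0.20 to 0.08) and H2-D1 (0.12, -0.02 to 0.25) had intervals that held 0 there.

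A library level can be rebuilt from the shares of UMIs in the T classes with the class levels of the 0 ng/ml library kept. For Psmb8 this gave 10.8, 25.3 and 23.5 CPM at 0.75, 3 and 12 ng/ml, beside the measured 11.6, 19.6 and 24.5 CPM. The class levels did not hold. From 0 to 12 ng/ml the rest went from 0.998 to 10.3 CPM and T-high cells from 75.2 to 57.1 CPM. Of the 126 Psmb8 UMIs in T-high cells without FGF2, 31 came from 1 cell. No direction is therefore read for the T-high class, and the rebuilt Psmb8 values lean on that cell too. What part the shares had in the library levels was not tested. For Psmb10 it gave 47.2, 69.5 and 66.8 CPM beside 58.9, 86.2 and 92.8 CPM measured, and for Psmb9 1.13, 1.95 and 1.85 CPM beside 2.16, 3.16 and 4.45 CPM. For H2-D1 it gave 34.8 CPM at 12 ng/ml beside 26.3 CPM. The T-high class level used here came from 39 cells, so the rebuilt values are rough.

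Cells were also split by cadherins, which mark the passage from epithelial to mesenchymal cells and were not part of the choice of genes. After thinning, cells with a Cdh1 (E-cadherin) UMI and no Cdh2 UMI numbered 546, 652, 890, 391 and 313 in FGFRi and at 0, 0.75, 3 and 12 ng/ml FGF2, and cells with the reverse pattern (Cdh2, N-cadherin) numbered 561, 421, 914, 1042 and 1299. H2-D1 was higher in the Cdh1-only cells of every library. In FGFRi it was at 70.6 CPM in Cdh1-only cells, 4.15-fold above the Cdh2-only cells. It was at 58.3 against 14.8 CPM without FGF2, 53.0 against 15.8 with 0.75, 54.4 against 14.3 with 3 and 52.3 against 16.7 with 12 ng/ml. The ratio was smallest at 12 ng/ml, at 3.14-fold, and no Cdh2-only class reached the level of any Cdh1-only class.

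H2-K1 and Tapbp had the same direction. The log2 ratio of Cdh2-only over Cdh1-only cells was -1.299, -1.27, -1.10, -0.59 and -0.95 for H2-K1 and -1.37, -1.51, -0.90, -0.55 and -0.67 for Tapbp, in the order FGFRi, 0, 0.75, 3 and 12 ng/ml. B2m was lower in Cdh2-only cells at each FGF2 dose, from -0.55 to -0.75, but not in FGFRi, where the ratio was 0.11 (0.01 to 0.20). Psmb8 was higher in Cdh2-only cells, by 1.43 (-0.15 to 3.27), 1.80, 1.53, 1.64 and 1.12, and Psmb10 by 0.27 (0.04 to 0.51), 1.14, 1.304, 1.04 and 0.81. Tap1 was higher in Cdh2-only cells of FGFRi, at 9.15 against 4.19 CPM (1.13, 0.70 to 1.57), and its intervals held 0 in the other 4 libraries.

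**Figure D5:**
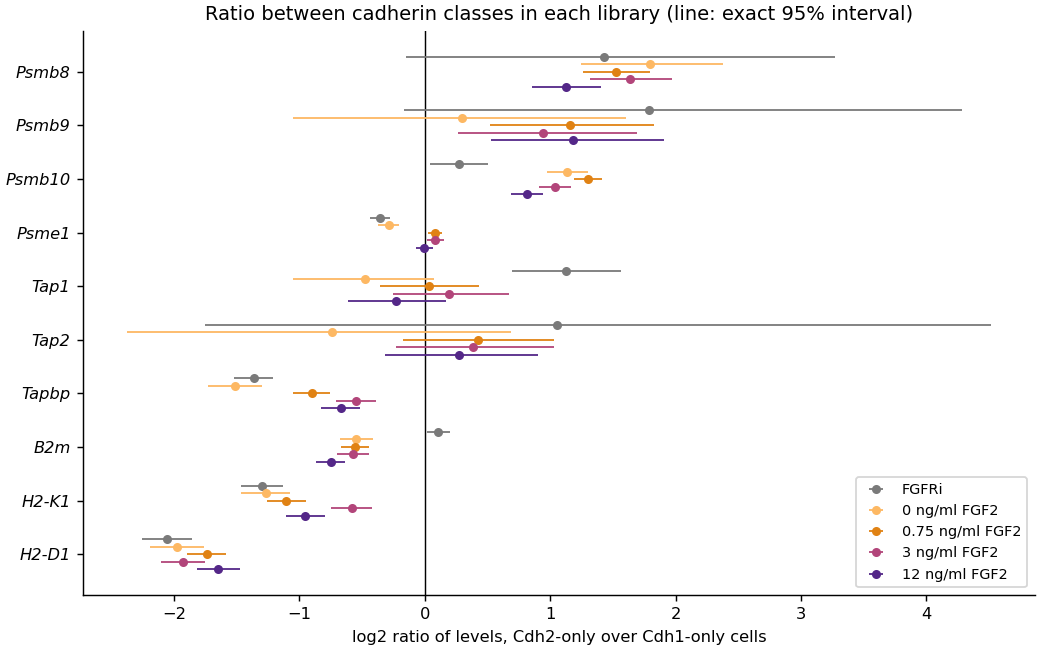
log2 ratio of the level in Cdh2-only over Cdh1-only cells (horizontal axis) for each gene, 1 point per library, with exact 95% intervals as lines. H2-D1 lies between -2.05 and -1.65 in all 5 libraries and Psmb10 between 0.27 and 1.304, so the class I heavy chain and the catalytic subunit stand on opposite sides of 0.

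The T and cadherin splits overlapped. Of cells without a T UMI, 47.4%, 50.8%, 40.0% and 31.7% were Cdh1-only at 0, 0.75, 3 and 12 ng/ml, against 12.5%, 13.2%, 10.4% and 7.89% of cells with 1 to 7 T UMIs. At 12 ng/ml H2-D1 was at 69.1 CPM (61.4 to 77.5) in Cdh1-only cells without a T UMI, 41.6 in those with 1 to 7 T UMIs and 37.0 in the T-high ones. In Cdh2-only cells the same 3 classes were at 18.4, 11.3 and 27.5 CPM. At 12 ng/ml the dip at 1 to 7 T UMIs was thus present among Cdh2-only cells. Among Cdh1-only cells there, H2-D1 was lower in both classes with T UMIs. In Cdh2-only cells, those without a T UMI and those with 1 to 7 had overlapping intervals at 0.75 (17.3 and 13.1 CPM) and 3 ng/ml (14.1 and 11.3 CPM). Without FGF2 (20.1 and 8.27 CPM) they did not overlap. At 3 ng/ml the intervals of Cdh1-only cells without a T UMI (61.4 CPM) and T-high ones (51.6 CPM) overlapped. Psmb8 in Cdh1-only cells at 12 ng/ml was at 0.472 CPM (0.0571 to 1.70) without a T UMI, 7.59 with 1 to 7 and 40.9 in T-high cells, and in Cdh2-only cells at 4.47, 13.2 and 63.9 CPM. Within either cadherin class Psmb8 was higher with more T UMIs.

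Other genes of the pathway were taken from lists chosen with earlier results known. Irf1, an interferon-induced activator of class I and immunoproteasome genes, was at 10.9 CPM in FGFRi and at 8.78, 13.4, 18.3 and 20.1 CPM with 0, 0.75, 3 and 12 ng/ml FGF2. In T-high cells Irf1 was at 47.6 against 8.19 CPM with 0.75, 39.8 against 7.78 with 3 and 44.0 against 9.66 with 12 ng/ml. It was the one gene past the fold of the 8 to 10 regulators compared, where 1.69%, 1.3% and 1.19% of all genes were. Irf1 reached 10 CPM through the T-high cells alone at each of these doses, so this count is a description. Nlrc5, the transactivator of class I genes, stayed at or below 0.0880 CPM in all libraries. The interferon ligands listed had 0 UMIs except Ifnk, at 0.0368 CPM at 0.75 ng/ml.

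Of the other class I presentation genes, Erap1, which trims peptides, was 2-fold or more higher in T-high cells at each of the 3 doses, with 27.7 against 8.22 CPM at 0.75 ng/ml. At 0.75 ng/ml Erap1 reached 10 CPM through the T-high cells alone. Of the 20 genes of this list found by symbol, 5, 6 and 5 were compared at 0.75, 3 and 12 ng/ml. Past the fold were 1, 1 and 2 of them, where 1.69%, 1.3% and 1.19% of all genes were, and 0 were lower. Pdia3, a chaperone of the loading complex, was like B2m highest in FGFRi, at 347 CPM, and was at 235, 187, 172 and 170.1 CPM with 0, 0.75, 3 and 12 ng/ml. Of the interferon-stimulated genes compared, 2 of 3, 2 of 3 and 5 of 6 were past the fold in T-high cells and 0 were lower. Over all genes 1.69%, 1.3% and 1.19% were higher and 1.79%, 0.86% and 0.684% lower. The list had 16 genes found by symbol, and those not compared stayed under 10 CPM in both classes. Isg15 was at 33.3 against 7.44 CPM at 3 ng/ml and 62.9 against 11.1 at 12 ng/ml, and Gbp2 at 36.1 against 7.07 and 47.8 against 9.31 CPM. Isg15 at 3 ng/ml and Gbp2 at both of these doses reached 10 CPM through the T-high cells alone. In the whole 3 or 12 ng/ml library only 3 genes of this list reached 10 CPM. The others of the 6 compared at 12 ng/ml thus did so through the T-high cells alone. These counts are a description, and nothing is read from them.

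Leukocytes express all 10 genes at high levels, and their markers were looked up. The 10 leukocyte markers summed to 4.34 to 6.03 CPM per library, Ptprc was at most 0.0418 CPM, and Adgre1 had 0 UMIs in all 5 libraries. Most of the sum therefore came from other markers of the list, and a part of leukocytes in the levels was not tested. MHC class II genes summed to 15.9, 7.43, 4.24, 3.44 and 3.80 CPM in FGFRi and at 0, 0.75, 3 and 12 ng/ml, of which Cd74 gave 15.3 CPM in FGFRi. The fibroblast markers summed to 110.03 CPM in FGFRi and 20.2 to 36.0 CPM in the other libraries, and the endothelial ones to 7.57 and 0.904 to 3.45 CPM. Both sums were highest in FGFRi, as were B2m, Tapbp, H2-K1 and H2-D1, and a part of such cells in those levels was not tested. The fibroblast list was mixed. From FGFRi to 12 ng/ml, 4 of its 6 genes were compared, of which 3 were 2-fold lower and 1 was 2-fold higher. Over all genes compared, 12.7% were lower and 7.72% higher.

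By the distance between centred log2(CPM + 1) profiles over the 5 libraries, the 10 genes most like the mean profile of Psmb8 and Psmb10, of 8759 genes with at least 10 CPM in any library, were Limch1, Grsf1, Ttyh1, Lefty2, Alox15, Ttc39b, Alpl, Defa30, G0s2 and Sp5. Limch1 was at 17.7, 31.3, 61.1, 103 and 121 CPM, and Lefty2, an inhibitor of Nodal, at 0.502, 2.13, 6.75, 10.9 and 11.9 CPM. By the same measure Isg15 was number 45, Irf1 582 and Psme1 2101, and H2-K1, Tapbp, H2-D1 and B2m were 6612, 6651, 7167 and 7595. T, at 0.753 CPM in FGFRi and 208 CPM at 12 ng/ml, was number 7978, so a high number need not mean the opposite direction between libraries. The measure rests on 5 points that differ in many genes at once.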

How the data were processed

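The authors sequenced 5 single-cell libraries made with a droplet 3′ kit and deposited, per sample, a table of whole-number UMI counts per gene and barcode with no normalization. The file headers name Cell Ranger 5.0.1, and the build is mm10. Counts in the files were used as deposited, with gene positions from GENCODE vM21 (32158 of 32285 identifiers matched) and promoter sequences from RefSeq (GRCm38.p6).

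Barcodes with at least 2500 genes and at most 10% mitochondrial UMIs were retained, 47824660 to 81538748 UMIs per library. No doublet caller was run. Retained counts were summed per library and class and divided by the total. With 1 library per condition no test was possible, and exact 95% intervals (Poisson, conditional binomial, Clopper-Pearson) were computed with Python 3.11.15, NumPy 2.4.6, pandas 2.3.3 and SciPy 1.17.1, and plots with Matplotlib 3.10.9. Shares of cells and cadherin classes were taken after thinning each cell to 10000 UMIs, without shallower cells. The rule of size and the T bound of 8 UMIs were applied to all genes. T classes under 50 cells were left out of the ratios, ranks and counts against the rest. The levels of the T-high cells without FGF2 are still given, and they enter the rebuilt levels. The scripts were tested on simulated data.

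The members and lists were chosen with earlier results of these data known. Named genes were all 10 members, the 10 genes of closest profile, and genes of the listed pathways. Alternatives covered the mitochondrial bound, unfiltered barcodes, scaling (edgeR 4.0.16 TMM factors under R 4.3.3), the fold and level bounds, and the T bound.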

Additional observations from a re-analysis of the deposited data

Results flagged for a closer look

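H2-D1 differed in direction between doses when T-high cells were set against the rest, with a log2 ratio of 0.38 at 12 ng/ml FGF2 and -0.35 at 0.75 ng/ml. The difference between the doses was not tested, since each dose is 1 library and cells are not replicates. With cells that had no T UMI as the rest, the 12 ng/ml value was -0.55.

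Psme1 had a log2 ratio of Cdh2-only over Cdh1-only cells of 0.084 at 3 ng/ml and -0.36 in FGFRi, and B2m of 0.11 in FGFRi and -0.75 at 12 ng/ml. These differences between libraries were not tested either.

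The 39 T-high cells without FGF2 were too few for the comparison, yet they held 75.2 CPM of Psmb8 (62.7 to 89.6) on 126 UMIs and 7.76 CPM of Tap2 (4.13 to 13.3) on 13 UMIs. The other cells of that library were at 0.998 and 0.381 CPM. Psmb10 was at 146 against 32.1 CPM there. One of these 39 cells held 31 of the 181 Psmb8 UMIs of the library.

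In FGFRi, 28 Psmb8 UMIs came from 1 cell, whose barcode was in no other library. It held 1 T UMI, 3 Cdh1 UMIs and 4 Cdh2 UMIs, and 5.26% of its UMIs were mitochondrial.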

How the results depend on the processing

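No paired analysis was possible because each condition had 1 library. Over the alternatives, 41 of 48 median log2 ratios and 105 of 114 counts of members stayed within their bounds, and none of these changed sign. From FGFRi to 12 ng/ml FGF2, the 2 members that were higher became 1 at a bound of 50 CPM and 4 without a bound, and 2 were lower at a ratio of 1.5. From 0 to 12 ng/ml the 2 became 1 and 4 likewise. Shares of all genes were taken only at the 2-fold and 10 CPM bounds, so counts at other bounds are a description. From FGFRi to 0 ng/ml, the median of -0.12 was -0.046 with the total taken without mitochondrial and ribosomal protein genes, 2 members were lower and 1 higher at a ratio of 1.5, and 2 were higher without a bound. For T-high cells at 0.75 ng/ml, the median of 1.28 was 0.88 at 4 T UMIs or more, 1.57 at 16 or more and 1.11 with thinned cells, and the 5 higher members became 2 at 4 T UMIs. At 3 ng/ml 1.38 was 1.17 at 16 T UMIs, and at 12 ng/ml 1.18 was 1.02 at 4 T UMIs and 1.44 against cells without a T UMI. The cause was not tested. Among single members, 380 of 483 log2 ratios stayed within their bounds, and 9 ratios changed sign, those of B2m, H2-K1, H2-D1 and Tap1 named with their comparisons in the report or near 0. Thinning moved 49 of 50 shares of cells with a UMI beyond their intervals, for Psmb8 at 12 ng/ml from 19.5% to 10.8%, and 95 of 350 levels of members moved beyond theirs. With 39 T-high cells at 0 ng/ml, the T-high alternatives were not run there. Leaving out shared barcodes or the cell richest in Psmb8, and counting members under each T setting, were chosen after seeing the data. Psmb9, Tap1 and Tap2 rest on few UMIs, 14 for Tap2 in FGFRi, and no replicate culture bounds any value.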

Other observations

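In T-high cells with a Psmb8 UMI after thinning, Psmb10 was also found in 73 of 82 cells with 0.75, 119 of 144 with 3 and 139 of 156 with 12 ng/ml FGF2. Of all T-high cells, 66.0%, 63.4% and 64.7% had a Psmb10 UMI.

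Cxcl10, an interferon-induced chemokine, was highest in the FGFRi library, at 18.3 CPM there and 3.38, 1.34, 0.124 and 0.311 CPM with 0, 0.75, 3 and 12 ng/ml FGF2, whereas Isg15 was at 2.05, 3.41, 6.05, 15.9 and 26.8 CPM in that order. Jak1, a kinase of interferon receptors, was at 101 CPM in FGFRi and 45.4 CPM at 12 ng/ml. Mx1, Mx2 and H2-T10 were not analysed here.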
